A study of Mus musculus with 12 samples.

Results

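Arntl, Clock and Npas2 form the positive arm of the circadian clock, and the sites of Rev-Erbα beside these 3 genes were described in mouse brown adipose tissue. The sites were chosen by gene name: every window whose annotated gene in the authors' peak lists was Arntl, Clock or Npas2, whatever its signal. The list made at 4 °C held 12 such windows among 11227, of which 9 belonged to Arntl, 2 to Npas2 and 1 to Clock. The list made at 29 °C held 4 among 2183, with 3 at Arntl, 1 at Npas2 and none at Clock. All 4 overlapped a member of the 4 °C list, so that 12 separate sites were described.

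Rev-Erbα was mapped by chromatin immunoprecipitation and sequencing with magnetic beads against an HA epitope tag. HA-RevErbα mice, whose Rev-Erbα carries the tag, gave 4 libraries after 1 week at 4 °C (a chronic cold challenge) and 4 after 1 week at 29 °C (thermoneutrality). Wild-type (WT) mice without the tag, put through the same pull-down, gave 2 libraries at 4 °C and 2 at 29 °C as background, and all mice were of the C57BL/6 strain. Whether each library came from 1 animal, how the tagged allele was made, and the age and the time of day at collection could not be learned from the labels. The binding values came from 4 pools, 1 for each genotype and temperature, so no value had a replicate and no test between temperatures was possible. Intervals in brackets are exact 95% Clopper-Pearson intervals. They cover counting error only: they hold no spread between animals, and reads that carry no molecular identifier may be copies of 1 molecule.

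The libraries held between 27.0 and 37.3 M (mega) aligned reads. The pools behind the values, recovered from the steps of the deposited numbers, held 63.8 M reads (HA-RevErbα 4 °C), 60.8 M (HA-RevErbα 29 °C), 27.1 M (WT 4 °C) and 25.1 M (WT 29 °C). The unit is FPKM, here the reads per kilobase of a 200 bp window and per M reads of the pool, a read density on DNA and not a level of expression. In the order just given, 1 read was worth 0.0784, 0.0822, 0.184 and 0.199 FPKM. RNA was not measured, so the tissue could not be checked against expressed markers. Of the marker genes listed for cell types of the tissue, 5 of 6 for brown adipocytes, 4 of 4 for endothelium, 0 of 4 for macrophages and 2 of 3 for white adipocytes were the annotated gene of a window at 4 °C. That list named 5451 genes, and the share of all annotated genes with a window was not computed. The counts are therefore no check of cell types.

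BMAL1, the product of Arntl, pairs with CLOCK or with its close relative NPAS2 through their bHLH-PAS domains. The pair binds E-boxes and switches on the Per and Cry genes, whose products inhibit it, and the genes of the nuclear receptors Rev-Erbα and Rev-Erbβ. Rev-Erbα binds the response element it shares with the activating ROR receptors, an AGGTCA core behind an A- and T-rich stretch, recruits the corepressor NCoR with a histone deacetylase, and represses Arntl. This is the second loop of the clock, and Clock and Npas2 are further known targets of it.

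The start region of Arntl is known for a pair of such elements, and they are shown because one of the strongest Arntl windows lies there. They were read from the RefSeq promoter table of build GRCm38.p6, which holds 250 bases before and 50 after each start and gives Arntl 2 starts that lie 46 bp apart on the plus strand of chromosome 7. The capitals mark AAAGTAGGT with the next 2 bases, a motif searched after this sequence had been seen.
Arntl, chr7:113207491-113207520: gattggtcggAAAGTAGGTTAgtggtgcga
Arntl, chr7:113207527-113207556: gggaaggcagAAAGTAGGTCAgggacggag
Counting each start as 0, the upper element spans 36 to 46 from the upstream start and -10 to 0 from the downstream start. The lower element spans 72 to 82 and 26 to 36, and 25 bases separate the elements. The lower element holds the core AGGTCA, while the upper element has AGGTTA in its place. The motif AAAGTAGGT, searched on both strands, occurred in 0.183% of 32851 promoter windows. TAGGTCA, which overlaps it in the lower element, occurred in 2.61%.

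The same search was run in the promoter windows of the other 2 genes. Clock, with 3 starts on the minus strand of chromosome 5, held the bare core AGGTCA in the window of 1 start, on the opposite strand and shown in capitals as it reads on the gene's strand.
Clock, chr5:76303608-76303629: ttggcctcTGACCTgacagatg
This core, at -119 to -114 from that start, occurred in 16.3% of all promoter windows. Neither TAGGTCA nor TGGGTCA (in 3.98% of all) nor the E-box CACGTG (in 7.15%) matched in a Clock or Npas2 promoter window, and no AGGTCA was found in that of Npas2. The sequences of the Clock and Npas2 windows in the peak lists were not analysed here. Positions of the peak windows below are those of the authors' files on build mm9 and cannot be set beside the GRCm38.p6 positions above.

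Arntl carried sites spread over 74.4 kb, from -21.2 kb to 53.2 kb of its start, with no window of another gene between them. Its 9 windows at 4 °C were matched or exceeded in number by 82 of the 5450 other genes with a window (1.50%), and the median gene had 1. Beyond this stretch the nearest windows of other genes were 138 kb (4930543E12Rik) and 183 kb (Pth) away.

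**Figure D1:**
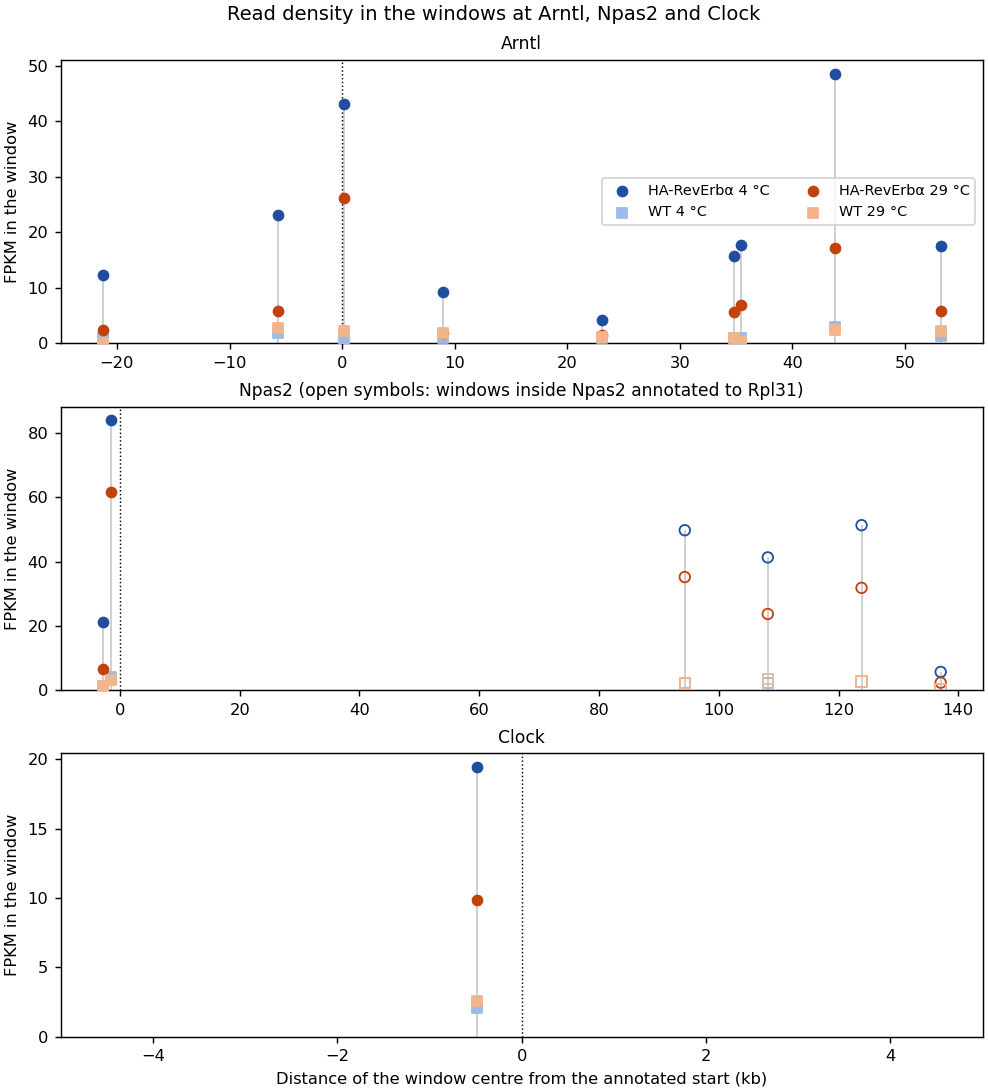
Read density (FPKM) in each window of the 4 °C list against the distance of its centre from the annotated start in kb, with 1 panel per gene. Circles are HA-RevErbα pools and squares WT pools, at 4 °C (blue) and 29 °C (orange), and open symbols are windows inside Npas2 that the files annotate to Rpl31. The highest Arntl point is at 43.8 kb at 4 °C and at 0.137 kb at 29 °C, and the WT points lie between 0.01 and 4.06 FPKM at the 12 windows of the 3 genes.

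The window at the Arntl start (chromosome 7, 120351016 to 120351216) lay in the 5′ UTR of exon 1. There were 43.1 FPKM at 4 °C and 26.2 FPKM at 29 °C in the HA-RevErbα pools, against 0.75 and 2.20 FPKM in the WT pools. Its centre was 137 bp from the authors' start, so the window ran from 37 to 237 bp downstream. The lower element shown above lies inside that range if counted from the upstream start, and neither element does if counted from the downstream start. The edge at 37 is close, however. From the upstream start the upper element begins at 36, and from the downstream start the lower element ends at 36. Whether the files count starts from 0 or 1 is not given, so these exclusions are not firm. Which of the 2 starts the authors' annotation used was not determined, because the builds differ. The read density at 4 °C was 1.64 times that at 29 °C (1.43 to 1.89) by pool size, and 0.963 times when the pools are scaled on WT reads of the 29 °C list. Windows of that list all had a signal over WT at 29 °C, and how far this selection shaped the factor was not tested.

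The highest-scoring Arntl window (chromosome 7, 120394674 to 120394874) lay 43.8 kb downstream, in intron 2 of NM_001243048. It had 48.6 FPKM at 4 °C and 17.3 FPKM at 29 °C in the HA-RevErbα pools, against 2.96 and 2.40 FPKM in the WT pools, a ratio of 2.82 (2.40 to 3.31). At 4 °C this intronic window was therefore the highest of the gene, and at 29 °C the window at the start was. Within the 4 °C pool it held 1.13 times the reads of the start window (1.003 to 1.27), and within the 29 °C pool 0.658 times (0.550 to 0.786). The 2 temperatures differed in this proportion by a factor of 1.71 (1.38 to 2.12), a value that no scaling of the pools can alter. This contrast was chosen after the values were seen. Of all windows of the 4 °C list, 91.8% likewise had a larger ratio than the start window, but most were weaker (median 7.07 FPKM at 4 °C). Among windows in both lists, as these 2 are, the median ratio was 1.88, between those of the start and the intronic window.

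A pair of windows 591 bp apart lay in the same intron. The one at 35.4 kb (chromosome 7, 120386325 to 120386525) had 17.7 FPKM at 4 °C and 6.92 FPKM at 29 °C in the HA-RevErbα pools, against 0.93 and 0.21 FPKM in the WT pools. Its neighbour at 34.9 kb (120385734 to 120385934) had 15.7 and 5.60 FPKM in the HA-RevErbα pools, against 0.93 and 1.01 FPKM in the WT pools. Their ratios of 4 °C to 29 °C, 2.57 (1.99 to 3.34) and 2.80 (2.12 to 3.75), did not differ beyond counting error, with a factor of 0.915 between them (0.619 to 1.35). Yet the window at 35.4 kb alone was listed at 29 °C. In the 29 °C list every window exceeds WT by at least 3 FPKM and, but for rounding, at least 4 times (lowest 3.97), and the window at 34.9 kb met both limits at 29 °C as well, with 4.59 FPKM over WT and 5.61 times WT (2.29 to 17.8).

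The other 5 Arntl windows were listed at 4 °C alone, and 3 of them had a signal over WT at 29 °C. At -5.68 kb (chromosome 7, 120345202 to 120345402, intergenic) the HA-RevErbα pools had 23.2 FPKM at 4 °C and 5.93 FPKM at 29 °C, against 1.85 and 2.80 FPKM in the WT pools. At 53.2 kb (120404063 to 120404263, intron 2) they had 17.6 and 5.77 FPKM, against 1.30 and 2.20 FPKM in the WT pools. Both windows stayed above WT at 29 °C, 2.12 times (1.19 to 4.07) and 2.63 times (1.38 to 5.50), but under the limit of 4 times. At -21.2 kb (120329633 to 120329833, intergenic) the HA-RevErbα pools had 12.3 and 2.48 FPKM, against 0.93 FPKM in the WT pool at 4 °C and no read in the WT pool at 29 °C, where 3 reads would be 0.598 FPKM. There the 29 °C signal was 2.47 FPKM over WT, short of the limit of 3 FPKM.

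The weakest Arntl windows lay in intron 1 of NM_007489. At 8.96 kb (chromosome 7, 120359843 to 120360043) the HA-RevErbα pools had 9.34 FPKM at 4 °C and 1.82 FPKM at 29 °C, against 0.93 and 1.80 FPKM in the WT pools. At 23.1 kb (120373964 to 120374164) they had 4.17 and 1.57 FPKM, against 0.93 and 1.21 FPKM in the WT pools. At 29 °C neither window differed from WT beyond counting error, with 1.01 times WT (0.446 to 2.49) and 1.31 times WT (0.502 to 4.00). Their ratios of 4 °C to 29 °C, 5.16 (3.25 to 8.54) and 2.66 (1.55 to 4.76), thus rest on 29 °C values at the WT level. The window at 23.1 kb ranked 9957 in the list, just above its lower limit, with 3.24 FPKM over WT at 4 °C.

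**Figure D2:**
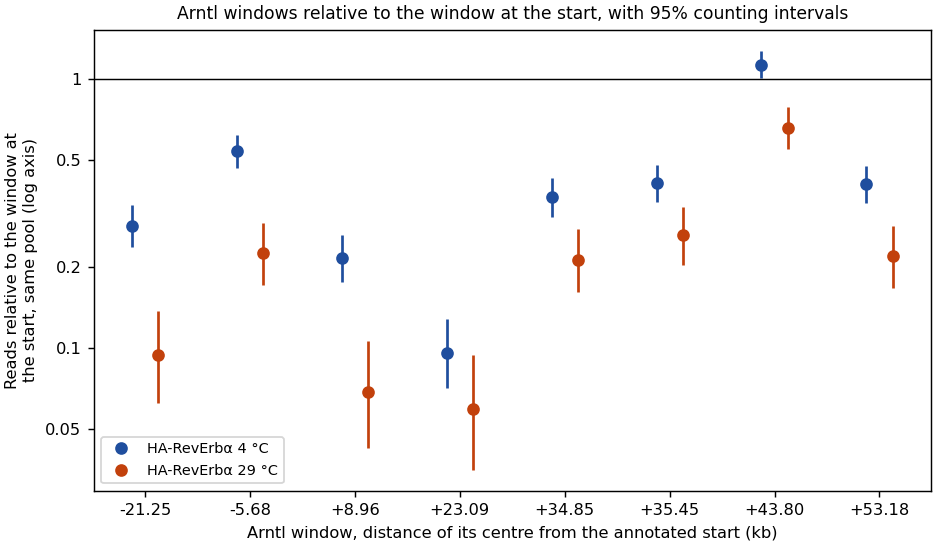
Reads in each Arntl window relative to the window at the start in the same HA-RevErbα pool (log axis), at 4 °C (blue, left) and 29 °C (orange, right), against the distance of the window centre from the start in kb. Vertical lines are 95% counting intervals. Every blue point lies above its orange neighbour, and the blue point at 43.8 kb, at 1.13, alone lies above 1.

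The start window had the smallest ratio of 4 °C to 29 °C among the Arntl windows. All 8 others held more reads relative to it in the 4 °C pool than in the 29 °C pool, which is near the 91.8% of the whole list. The factors ran from 1.56 (1.16 to 2.10) at 35.4 kb to 3.14 (1.93 to 5.30) at 8.96 kb. The interval included 1 at 23.1 kb alone (1.62, 0.922 to 2.95). With WT subtracted, the 8 factors stayed above 1, although that at 8.96 kb then has no stable value because its 29 °C signal equals WT. Over the 9 windows (1800 bp) the HA-RevErbα pools had means of 21.3 FPKM at 4 °C and 8.18 FPKM at 29 °C, against 1.28 and 1.54 FPKM in the WT pools. The summed reads gave a ratio of 2.61 for HA-RevErbα (2.41 to 2.82) and 0.831 for WT (0.580 to 1.19).

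Npas2, which encodes the alternative partner of BMAL1, had the highest-scoring window of the whole 4 °C list and the second of the 29 °C list. At -1.43 kb (chromosome 1, 39249586 to 39249786, annotated as intergenic) the HA-RevErbα pools had 84.1 FPKM at 4 °C and 61.7 FPKM at 29 °C, against 4.06 and 3 FPKM in the WT pools. The signal was 20.7 times WT at 4 °C (13.6 to 33.2) and 20.6 times WT at 29 °C (12.4 to 37.1). Its ratio of 4 °C to 29 °C was 1.36 (1.24 to 1.50) by pool size, which becomes 0.946 or 0.799 when the pools are scaled on WT reads of the windows in both lists or of the 29 °C list. The direction at this window thus turned with these scalings. Both rest on windows listed with a signal over WT at 29 °C, and those behind 0.946 were also listed at 4 °C. Scaled on WT reads of all windows of the 4 °C list, which were listed with a signal over WT at 4 °C, the ratio was 1.34.

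A weaker Npas2 window lay 1417 bp further upstream, at -2.85 kb (chromosome 1, 39248169 to 39248369, intergenic). Here the HA-RevErbα pools had 21.3 FPKM at 4 °C and 6.42 FPKM at 29 °C, against 1.30 and 1.21 FPKM in the WT pools, a ratio of 3.31 (2.57 to 4.32). Relative to its strong neighbour it held 0.253 times the reads at 4 °C (0.220 to 0.289) and 0.104 times at 29 °C (0.0813 to 0.131), a factor of 2.43 between the temperatures (1.85 to 3.22). It was listed at 4 °C alone although at 29 °C it too met both limits, with 5.21 FPKM over WT and 5.36 times WT (2.36 to 15.1). The weaker Npas2 window thus differed more between temperatures than the strong one, as did 96.1% of all windows of the 4 °C list. Since it and the Arntl window at 34.9 kb met both limits unlisted, the limits alone do not set the list.

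Choosing sites by annotated gene left out 4 windows that lie inside the Npas2 transcript NM_008719 but are nearest to the start of Rpl31, a ribosomal protein gene downstream. They were sought after the values were seen. In intron 3, 94.3 kb from the Npas2 start (chromosome 1, 39345345 to 39345545), the HA-RevErbα pools had 49.8 FPKM at 4 °C and 35.2 FPKM at 29 °C, against 2.22 and 2 FPKM in the WT pools. In intron 5 (108 kb, 39359205 to 39359405) they had 41.3 and 23.7 FPKM, against 2.22 and 3.40 FPKM in the WT pools. In intron 7 (124 kb, 39374864 to 39375064) they had 51.4 and 31.8 FPKM, against 2.59 and 2.60 FPKM in the WT pools. These 3 windows ranked 17, 41 and 14 in the 4 °C list and stood in both lists.

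The last of the 4, in intron 12 (137 kb, chromosome 1, 39388082 to 39388282), was listed at 4 °C alone and was weak. It had 5.66 FPKM at 4 °C and 2.31 FPKM at 29 °C in the HA-RevErbα pools, against 0.19 and 0.21 FPKM in the WT pools. The 3 strong intronic windows had ratios of 4 °C to 29 °C of 1.41 (1.25 to 1.60), 1.74 (1.51 to 2.02) and 1.61 (1.42 to 1.83) by pool size. Those of introns 3 and 7 were smaller than the WT factor of the 29 °C list (1.71). That of intron 3 was also smaller than the factor of the windows in both lists (1.44). Relative to the window at -1.43 kb, the factor between temperatures was 1.04 (0.887 to 1.21) for intron 3, 1.28 (1.08 to 1.53) for intron 5 and 1.18 (1.01 to 1.39) for intron 7. The weak window in intron 12 had a ratio of 2.45 (1.56 to 3.94), and a factor of 1.80 (1.13 to 2.92). No window inside Arntl or Clock carried another gene's name. Of 5618 windows of the 4 °C list placed in an exon or intron whose transcript could be matched, 28.5% were annotated to a gene other than the host, so this is a common property of the list.

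Clock, which encodes the main partner of BMAL1, had 1 window, at -484 bp from the start of NM_001305222 and annotated as promoter (chromosome 5, 76732911 to 76733111). There were 19.5 FPKM at 4 °C and 9.88 FPKM at 29 °C in the HA-RevErbα pools, against 2.04 and 2.60 FPKM in the WT pools. The signal was 9.59 times WT at 4 °C (5.27 to 19.5) and 3.81 times WT at 29 °C (2.14 to 7.36). Clock was not in the 29 °C list although its signal exceeded WT there, at a fold just under the limit of 4. The ratio of 4 °C to 29 °C was 1.97 (1.58 to 2.47), and the nearest windows of other genes lay 183 kb (Srd5a3) and 236 kb (Exoc1) away.

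**Figure D3:**
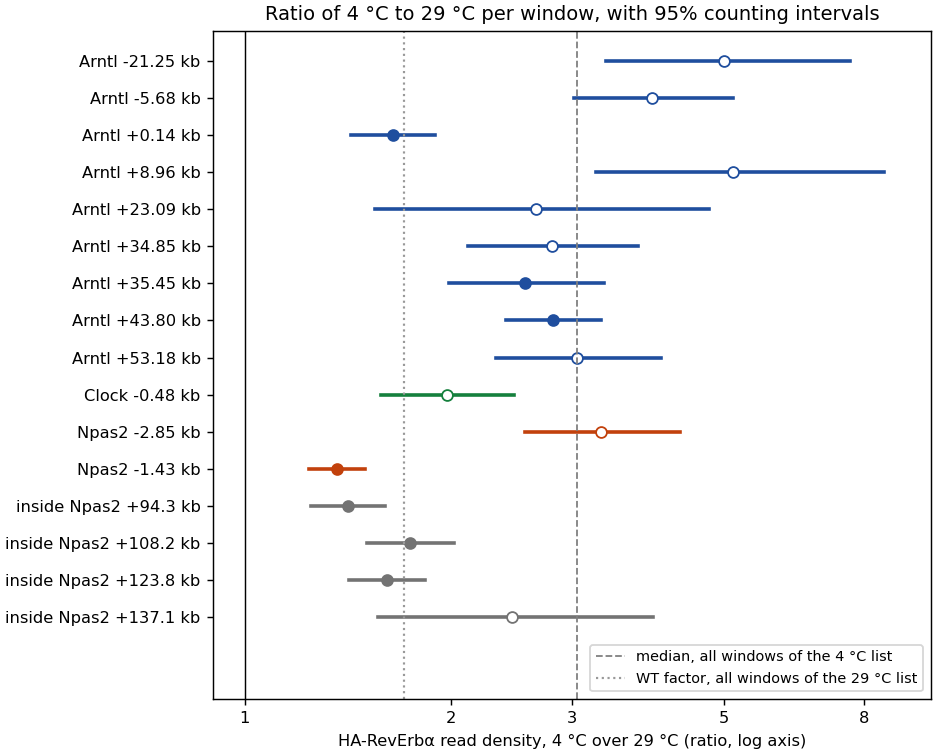
Ratio of HA-RevErbα read density at 4 °C over 29 °C (log axis) in each window, named by gene and distance from its start, with 95% counting intervals. Filled points are in both lists and open points in the 4 °C list alone; the dotted line is the WT factor of all 29 °C windows (1.71) and the dashed line the median of all 4 °C windows (3.05). The filled points at -1.43 kb of Npas2 (1.36) and at the Arntl start (1.64) lie left of the dotted line, and the open points run from 1.97 at Clock to 5.16 at Arntl 8.96 kb. Grey points are the windows inside Npas2 annotated to Rpl31, of which those at 94.3 kb (1.41) and 124 kb (1.61) also lie left of it.

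Set in order at 4 °C, the HA-RevErbα levels at the highest-scoring windows ran from Npas2 (84.1 FPKM) over Arntl (48.6 FPKM) to Clock (19.5 FPKM). The order at 29 °C was the same, with 61.7, 17.3 and 9.88 FPKM in these windows, and the Arntl start window, at 26.2 FPKM, stood between Npas2 and the Arntl intron. In the WT pools none of the 12 windows differed between 4 °C and 29 °C beyond counting error, with levels from 0.75 to 4.06 FPKM at 4 °C and from 0.01 to 3 FPKM at 29 °C.

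Against the whole 4 °C list, the windows of the 3 genes were not unusual in how they differed between temperatures. A ratio of at least 2 was found at 9 of the 12 windows, against 83.4% of all 11227, and the counting interval lay above 1 at 12 of 12, against 95.4%. Their median ratio was 2.81, and that of all windows 3.05. All windows of the list were selected on 4 °C signal. With the pools scaled on WT reads of the windows in both lists or of the 29 °C list, 5 and 3 of the 12 had a ratio of at least 2, against 55.4% and 39.7% of all windows. Under scaling on WT reads of all windows of the 29 °C list, 1.71, the ratio was below 1 at Npas2 -1.43 kb (0.799) and at the Arntl start (0.963). Under the factor of the windows in both lists, 1.44, it was so at Npas2 -1.43 kb alone. Both factors come from windows listed with a signal over WT at 29 °C, and those behind 1.44 were also listed at 4 °C. No ratio was at most 0.5 among the 12, against 0.0802% of all windows.

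Their level at 29 °C set them nearer to the upper end of the list. The 4 windows found in both lists made up 4 of 12, against 14.9% of all windows, and 3 of these 4 were among the 28 highest-scoring of the 4 °C list. Windows of such a score were mostly shared: of the 201 highest, 89.6% were in both lists. Signal over WT at 29 °C, by a counting interval above 1, was seen at 10 of 12 windows, against 41.5% of all. Among the 8 windows listed at 4 °C alone it was seen at 6, against 31.3%. Of these 8, 2 met both limits of the 29 °C list at 29 °C, against 1% of all such windows. These shares were not matched for level. The median HA-RevErbα level at 4 °C was 18.6 FPKM in the 12 windows, of which 9 lie at Arntl, and 7.07 FPKM in all windows.

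Of the 4 shared windows, 2 had a ratio of at least 2, against 43.1% of all shared windows. The ratios read in the windows of the 29 °C list, whose centres were 7 to 16 bp away, were 1.64 at the Arntl start, 2.62 at 35.4 kb, 2.74 at 43.8 kb and 1.36 at Npas2. Of the 8 at 4 °C alone, 7 had a ratio of at least 2, against 90.5% of all such windows, Clock being the other. The smallest ratios of the 12 were at Npas2 -1.43 kb, the Arntl start and Clock, with 3.90%, 8.13% and 15.7% of all windows of the 4 °C list below them. These had 3 of the 4 highest 29 °C levels of the 12.

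Other genes of the clock were counted from a list of 23. Of these, 14 had a window at 4 °C and 3 at 29 °C (Cry1, Nr1d1 and Nfil3). The share of all annotated genes with a window was not computed, so these counts have no background. At the highest-scoring window of each gene the ratio was at least 2 at 13 of 14, with a median of 3.16, while over all 5451 genes it was so at 82.1%, with a median of 3.04. For Arntl, Clock and Npas2 together the same count was 1 of 3, with a median of 1.97. These windows ranked 20, 477 and 1 in the 4 °C list, so they were stronger than most. Among windows in both lists, as those of Arntl and Npas2 are, the median ratio was 1.88 and 43.1% reached 2.

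Among genes that repress this arm or its targets, the strongest windows lay between those of Npas2 and Arntl at 4 °C, and others were below that of Clock. Cry1, which encodes an inhibitor of CLOCK and BMAL1, had 78.2 and 35.9 FPKM in the HA-RevErbα pools at 4 °C and 29 °C, against 4.25 and 3.40 FPKM in the WT pools. Nr1d1, the gene of Rev-Erbα itself, had 61.6 and 34.8 FPKM, against 2.96 and 4.79 FPKM in the WT pools, and its ratio of 1.77 was the one of the 14 under 2. Per3, a Period gene, had 9.03 FPKM at 4 °C and 2.72 FPKM at 29 °C in the HA-RevErbα pools, against 2.22 and 1.41 FPKM in the WT pools. Bhlhe40, a repressor that competes for E-boxes, had 12.3 and 2.48 FPKM, against 2.77 and 1.80 FPKM in the WT pools, and its relative Bhlhe41 had 12.1 and 2.89 FPKM, against 1.48 and 1.41 FPKM. At Rora and Rorb, whose products activate Arntl through the elements Rev-Erbα binds, the levels at 4 °C were lower than at Per3 and both Bhlhe genes. Rora had 6.68 FPKM at 4 °C and 2.23 FPKM at 29 °C in the HA-RevErbα pools, and Rorb had 6.52 and 3.05 FPKM. The windows of Rora and Rorb lay at -198 kb and 104 kb from their starts. Tef, an output gene of the PAR bZIP family, had 5.58 FPKM at 4 °C and 2.64 FPKM at 29 °C. Further genes with a window included Per2, Cry2, Dbp and Hlf, these 4 at 4 °C alone, and Nfil3.

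No window was annotated to Arntl2, the paralog of Arntl, nor to Per1, Nr1d2, Ciart, Csnk1d, Csnk1e, Fbxl21 or Timeless. This says only that none carried these names, since windows inside a gene may be annotated to another.

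Windows with the most similar levels over the 4 pools were found by their distance on log2(FPKM + 0.5), counting 1 window per gene. For the Arntl window at 43.8 kb they were those of Zfp652, Slc41a2 and Eif4g3, at distances of 0.288, 0.333 and 0.475. For Clock they were Psap (0.164), Lpp (0.178) and Nabp1 (0.191). For Npas2 at -1.43 kb they were Il12b (0.433), Abr (0.527) and Cdkn1a (0.716), so the strongest site had the least close matches of the 3.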

How the data were processed

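The authors deposited 1 peak list per temperature, made on pooled libraries per the file headers, and 1 aligner log per library. The submitters' processing notes list Bowtie2 2.1.0, HOMER 4.10 and the mouse build mm9 but not what each was used for. How peaks were called and whether duplicates were removed could not be learned from the labels or headers. The deposited FPKM of each 200 bp window had 0.01 added, and the deposited peak score is about 2 times the FPKM of the list's own pool. Less 0.01, all FPKM of a pool fell on whole steps of 1 size (100% within 0.01 FPKM), which gave reads and pool sizes. The pools held 39.5% to 49.8% of the aligned reads, and the step that left out the rest is not known. Ratios used these reads, and windows overlapping by at least 1 bp counted as shared. Fold 2 was the call rule. Whether starts count from 0 or 1 is not given. The design had foreseen no test, and none was made. Computation used Python 3.11.15, scipy 1.17.1 and pandas 2.3.3, and the intervals and read recovery were tested on simulated data. The members, gene lists and marker lists were chosen with earlier results of these data known. Named genes were all sites of the 3 genes, list members with a window (at most 12 with values), and the 3 nearest windows by level. Some members of the gene lists are counted but not reported by name here.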

Additional observations from a re-analysis of the deposited data

How the results depend on the processing

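The scaling of the pools moved the ratios of 4 °C to 29 °C. Factors from WT reads were 1.02 (all windows of the 4 °C list), 1.44 (windows in both lists, 0.53 on the log2 scale) and 1.71 (all windows of the 29 °C list, 0.77 on the log2 scale). Windows behind 1.71 all exceed WT at 29 °C by at least 3 FPKM, and those behind 1.44 overlap such windows. Windows behind 1.02 all exceed WT at 4 °C by at least 3 FPKM, and those behind 1.44 also stand in that 4 °C list. Median WT levels at 4 °C and 29 °C were 1.48 and 1.01 FPKM in the windows in both lists. Over the whole 4 °C list they were 1.12 and 1.21 FPKM. How far the listing shaped these factors was not tested. Factors 1.44 and 1.71 gave 1.95 and 1.65 at the highest-scoring Arntl window, 1.37 and 1.15 at Clock, and the reversed 0.946 and 0.799 at Npas2. They left 5 and 3 windows with a ratio of at least 2, against 9 by pool size. At the other 9 windows these factors moved 6 and 7 ratios out of their intervals, and the Arntl start window reversed under 1.71 alone, to 0.963. WT subtraction moved 3 of 8, the window at 8.96 kb being left out because its 29 °C signal equals WT. Within 10 kb of a start the lists held 6 (4 °C) and 2 (29 °C) of the 12 and 4 sites. Counting windows inside the transcripts, an alternative chosen after seeing the data, gave 7 at 29 °C. The other 30 alternative values for the main results stayed within their intervals or within 1.5 times the count, among them WT subtraction, pseudocounts of 0.5 and 1, stricter limits and other overlap rules. No paired analysis was possible because the values are of pooled libraries, and for the same reason no replicate could be left out. WT windows rested on 0 to 22 reads, which limits every fold over WT.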

Other observations

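Proteins that bind the CLOCK and BMAL1 complex were counted from a list of 13 genes, 5 of which are also among the other clock genes. Of the 13, 6 had a window at 4 °C and 2 at 29 °C, and the share of all annotated genes with a window was not computed. The ratio of 4 °C to 29 °C was at least 2 at all 6, against 82.1% of all genes with a window. Kat2b, a histone acetyltransferase gene, had 11.2 FPKM at 4 °C and 2.31 FPKM at 29 °C in the HA-RevErbα pools, against 1.85 and 2.60 FPKM in the WT pools. The coactivator gene Ncoa3 had 6.99 and 2.64 FPKM, against 1.30 and 1.21 FPKM in the WT pools. Cipc, whose product represses CLOCK, had 4.87 and 1.57 FPKM, against 1.12 and 1.01 FPKM in the WT pools. No window was annotated to Ep300, Crebbp, Kmt2a, Sirt1 or Med1.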
